A study of Ovis aries with 16 samples.

Results

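The endothelin and angiotensin systems are peptide hormone systems that constrict blood vessels. The genes examined were the endothelin ligands EDN1, EDN2 and EDN3, the endothelin-converting enzyme ECE1, the endothelin receptors EDNRA and EDNRB, the angiotensin precursor AGT and the angiotensin receptors AGTR1 and AGTR2. Members were every probe set with a single gene symbol in the platform's probe-to-gene table that carried the symbol of 1 of 10 listed genes. Of these 10 genes 9 had such a probe set, out of 9155 named genes, with 13 probe sets of the 24016 tested. ACE, the enzyme that makes angiotensin II, had none and was not analysed here.

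Peripheral lung was taken from lambs of 3 days of age. The 8 shunt lambs had received, by fetal surgery 9 ± 6 days before term, a Gore-tex graft 8.0 mm across and 2 mm long that joined the ascending aorta to the main pulmonary artery, a model of congenital heart disease in which pulmonary blood flow is increased. The 8 control lambs came from ewes with a sham operation. RNA of each lung was hybridized to an Affymetrix array with bovine probe sets, so a base that differs between sheep and cow can lower a signal. The deposited values are log2 levels made with RMA, and a difference of 1 is a doubling. The labels describe no lamb separately, so an array stands for 1 lamb here. Where a lamb gave more than 1 array, p-values would cover only technical spread.

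Endothelins are made as long precursors. ECE1 cuts the inactive big endothelin to the active peptide, which in lung is made mainly by endothelial cells. EDNRA on vascular smooth muscle mediates constriction, while EDNRB on endothelium releases nitric oxide and prostacyclin and clears endothelin from the blood. Angiotensinogen, the product of AGT, is cut by renin and then by ACE to angiotensin II, which constricts vessels through AGTR1. AGTR2 is abundant in fetal tissues and in many settings opposes AGTR1.

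The arrays correlated with each other from 0.980 to 0.995. The array least like the rest was control replicate 2, whose correlations averaged 0.983 where those of the other arrays averaged 0.990 to 0.993, and whose weight in limma was the lowest. Array medians ran from 7.112 to 7.139 in shunt and from 7.138 to 7.186 in control. The 7 measured markers of alveolar type 2 cells lay at percentiles from 51.6 (SLC34A2) to 99.7 (SFTPC) of all probe sets by mean level, with a median of 88.5. Of markers of heart muscle and liver, tissues taken to be absent, 7 were measured, at percentiles from 11.5 to 96.8 with a median of 45.7. A high percentile alone therefore does not identify a tissue. In tissue RNA fewer cells of a type and less RNA per cell cannot be told apart.

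None of the 13 probe sets passed the threshold, an adjusted p of 0.05 over all 24016 probe sets (limma, Benjamini-Hochberg). In the same fit 17 probe sets passed, 0.0708% of all, with 0.0666% higher and 0.00416% lower. An unadjusted p under 0.05 was seen for 1 of the 13, the probe set of EDN3, where 13.7% of all probe sets fell under that value. By the exact two-sided permutation test of each difference 0 of the 13 had p under 0.05, and the lowest was 0.0605. That test was run for the members only, so its count has no share over all probe sets to stand beside. The groups of 8 overlapped for 13 of 13, while 0.142% of all probe sets had groups that did not overlap. Of the differences 6 were above 0 and 7 below, with a median of -0.052, and over all probe sets 44.9% were above 0 with a median of -0.014.

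**Figure D1:**
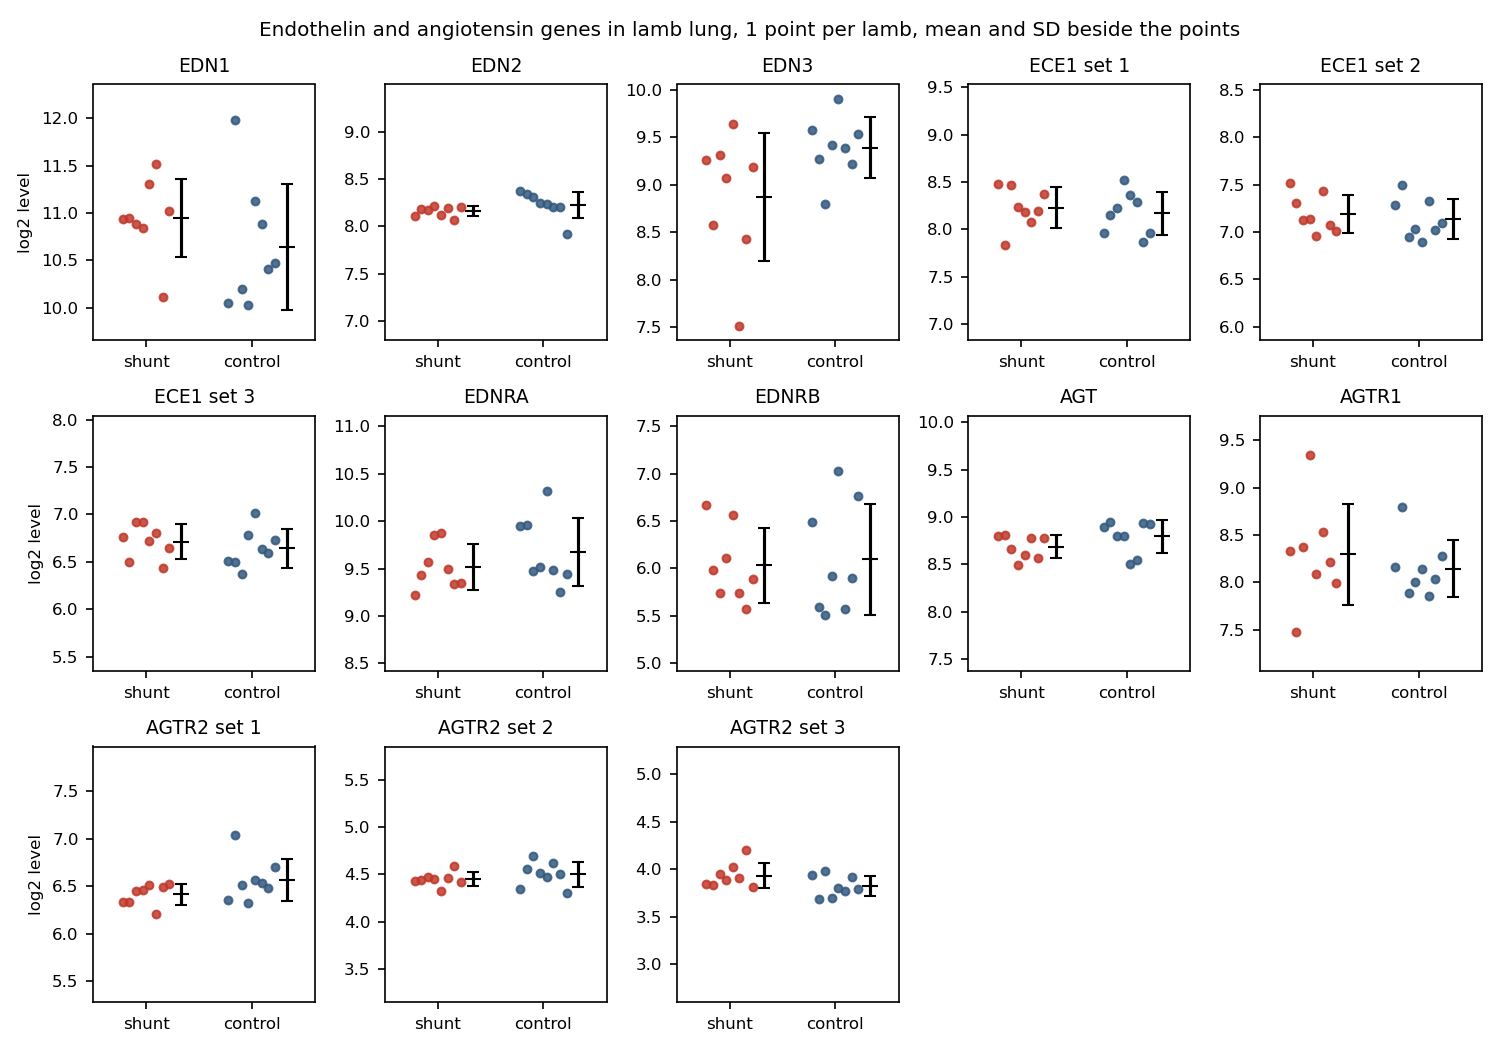
Log2 level (vertical axis, the same span of 2.7 in each panel) of the 13 probe sets in 8 shunt lambs and 8 control lambs, 1 point per lamb, with the group mean and SD beside the points. Where a gene has several probe sets, set 1 is the brightest. The points of the groups overlap in all 13 panels, and EDN1, EDN3, EDNRB and AGTR1 spread the most between lambs.

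Among the ligands, EDN1 and EDN3 differed in opposite directions, and neither difference passed the threshold. EDN1 encodes endothelin-1, the main endothelin of vessels. Its level in shunt lambs had a lowest value of 10.12, a median of 10.94 and a highest of 11.52. In control lambs these were 10.03, 10.44 and 11.98. Most shunt lambs lay close together near 11, with only shunt replicate 7 low, and the control lambs were scattered, with control replicate 2 the highest of all 16. EDN1 averaged 10.95 ± 0.41 in shunt and 10.64 ± 0.66 in control lungs (SD, n = 8 each). The difference was 0.30 ± 0.24 (SE, 95% interval -0.21 to 0.81, adjusted p = 0.583), and 7 of 8 shunt lambs lay above the control mean. Control replicate 2, the array that stood apart, weighed on this value. Without it the EDN1 difference was 0.49, with an unadjusted p of 0.0174 and an adjusted p of 0.342 (limma). With array weights, which gave that array little say, it was 0.52 (unadjusted p = 0.0112, adjusted p = 0.220).

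EDN3 encodes endothelin-3, which binds EDNRB far better than EDNRA. Its level ran from 7.51 through a median of 9.13 to 9.64 in shunt lambs, and from 8.80 through 9.41 to 9.91 in control lambs. Below the lowest control lamb lay 3 of 8 shunt lambs, and shunt replicate 6 was the lowest of all 16. EDN3 averaged 8.87 ± 0.68 in shunt and 9.39 ± 0.32 in control lungs (SD, n = 8 each). The difference was -0.52 ± 0.23 (SE, 95% interval -1.004 to -0.03), or 0.70-fold, with an unadjusted p of 0.0388, an adjusted p of 0.345 (limma) and an exact permutation p of 0.0605. Of the shunt lambs 7 of 8 were below the control mean, the exception being shunt replicate 5. Without shunt replicate 6 the EDN3 difference was -0.32, with an unadjusted p of 0.0744. Unadjusted p was under 0.05 in 9 of 9 alternative limma fits of all lambs and in 8 of 16 with 1 lamb left out. Adjusted p was 0.296 or above in all of these. In size it was at percentile 99.6 of all differences, and its spread within the groups was at percentile 99.2 of all spreads.

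EDN2 encodes endothelin-2, a ligand of both receptors. It varied least among the ligands, from 8.07 through 8.18 to 8.22 in shunt lambs and from 7.92 through 8.24 to 8.37 in control lambs. All 8 shunt lambs were below the control mean, yet all lay above the lowest control, replicate 8. The difference was -0.07 ± 0.06 (SE, 95% interval -0.19 to 0.05, adjusted p = 0.597). Without control replicate 8 it was -0.11, with an unadjusted p of 0.0224 and an adjusted p of 0.236 (limma). The interval from all lambs spans folds of 0.88 to 1.04.

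The converting enzyme ECE1 had 3 probe sets, and none of them differed past the threshold. The differences were 0.06 ± 0.10, 0.06 ± 0.10 and 0.07 ± 0.09 (SE), from the brightest to the dimmest, with adjusted p from 0.739 to 0.806. The brightest averaged 8.23 ± 0.21 in shunt and 8.17 ± 0.23 in control lungs (SD, n = 8 each), within a range of 7.83 to 8.47 in shunt and 7.87 to 8.52 in control lambs. Over the 3 probe sets the 95% intervals ran from 0.90 to 1.21-fold. With 1 lamb left out the differences ran from 0.02 to 0.12, from 0.01 to 0.11 and from 0.03 to 0.13, in the same order. Their lamb-to-lamb pattern did not match closely. With group means removed, the brightest and the dimmest had r = 0.46 and rho = 0.44 over 16 lambs (permutation p = 0.0896 and 0.103). Either one against the other probe set had r of -0.15 and -0.17 (permutation p = 0.586 and 0.547). Of the 6 such pairs computed within ECE1 and AGTR2, 0 passed after adjustment, with adjusted p of 0.538 or above.

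**Figure D2:**
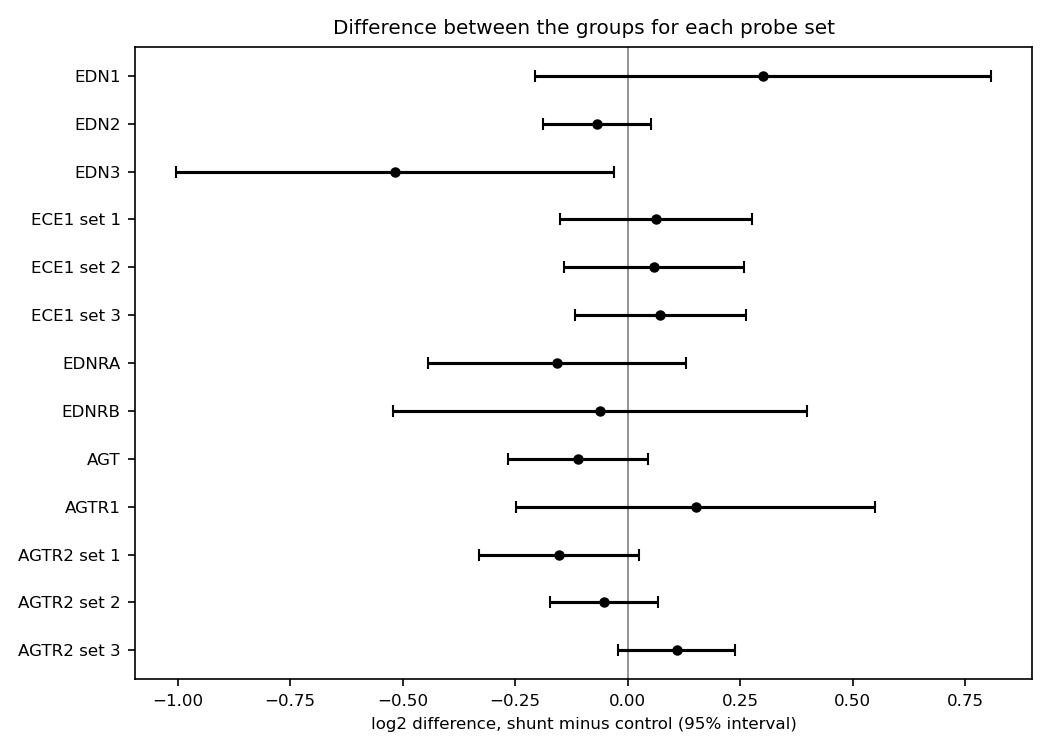
Log2 difference of shunt minus control (horizontal axis) for each of the 13 probe sets (rows), with the 95% interval from limma. The interval of EDN3, from -1.004 to -0.03, is the only one without 0, before adjustment for the 24016 probe sets tested.

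The endothelin receptors differed by less than the spread between lambs. EDNRA ran from 9.22 through a median of 9.47 to 9.87 in shunt lambs and from 9.25 through 9.499 to 10.31 in control lambs. The medians nearly coincided, and the difference in means rested on control replicates 1, 2 and 5, which were above every shunt lamb. EDNRA averaged 9.52 ± 0.24 in shunt and 9.67 ± 0.36 in control lungs (SD, n = 8 each), a difference of -0.16 ± 0.14 (SE, 95% interval -0.45 to 0.13, adjusted p = 0.614). Without control replicate 5 it was -0.07. EDNRB ran from 5.57 through 5.94 to 6.67 in shunt lambs and from 5.50 through 5.91 to 7.02 in control lambs. The groups covered nearly the same range. The EDNRB difference was -0.06 ± 0.22 (SE, 95% interval -0.52 to 0.40, adjusted p = 0.919), so changes of 0.70 to 1.32-fold lay within its interval. Its sign turned when control replicate 5 (0.07), control replicate 8 (0.03) or shunt replicate 7 (0.0047) was left out. The EDNRB probe set was dim, at percentile 29.3 of all probe sets by mean level.

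**Figure D3:**
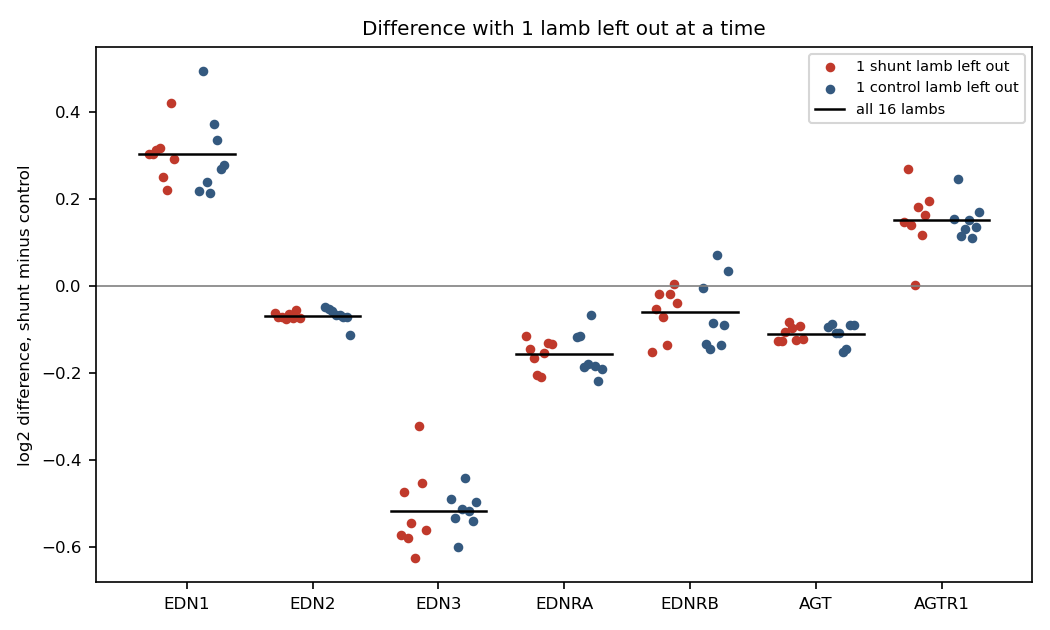
Log2 difference of shunt minus control (vertical axis) for 7 genes measured by 1 probe set each, with each lamb left out in turn (points, coloured by the group of the lamb left out) and with all 16 lambs (lines). The EDN1, EDN2, EDN3, EDNRA and AGT points stay on their side of 0, AGTR1 comes down to 0.0012 without shunt replicate 4, and EDNRB crosses 0.

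Among the angiotensin genes no difference passed either. AGT ran from 8.49 through 8.72 to 8.81 in shunt lambs and from 8.50 through 8.85 to 8.95 in control lambs. All 8 shunt lambs lay below the control median, while control replicates 5 and 6 were as low as the lowest shunt lambs. AGT averaged 8.68 ± 0.12 in shunt and 8.79 ± 0.18 in control lungs (SD, n = 8 each). The difference was -0.11 ± 0.07 (SE, 95% interval -0.27 to 0.05, adjusted p = 0.507), with an exact permutation p of 0.164.

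AGTR1, the receptor through which angiotensin II constricts vessels, ran from 7.48 through 8.28 to 9.34 in shunt lambs and from 7.86 through 8.09 to 8.80 in control lambs. Both the highest value, shunt replicate 4, and the lowest, shunt replicate 2, were shunt lambs. AGTR1 averaged 8.30 ± 0.53 in shunt and 8.15 ± 0.30 in control lungs (SD, n = 8 each), a difference of 0.15 ± 0.19 (SE, 95% interval -0.25 to 0.55, adjusted p = 0.740). It was 0.0012 without shunt replicate 4, 0.27 without shunt replicate 2 and 0.24 without control replicate 2.

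AGTR2 had 3 probe sets, which did not point the same way. The brightest averaged 6.41 ± 0.11 in shunt and 6.56 ± 0.23 in control lungs (SD, n = 8 each), a difference of -0.15 ± 0.08 (SE, adjusted p = 0.424), with 8 of 8 shunt lambs below the control mean. Control replicate 2 was the highest lamb there, at 7.04, and without it the AGTR2 difference was -0.09. The other two probe sets were among the dimmest on the arrays, at percentiles 6.58 and 0.754 by mean level. They differed by -0.05 ± 0.06 and 0.11 ± 0.06 (SE, adjusted p = 0.698 and 0.436). Signal over background is unknown there, so these values do not show whether AGTR2 RNA was measured.

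The genes around the members were described from 5 lists of their pathways, with 92 genes of which 55 had 94 probe sets. None of the 94 passed (limma), although an unadjusted p under 0.05 was found for 6 on the higher and 10 on the lower side, and for 10 and 7 with each array centred on its median. Over all probe sets these shares were 6.42% and 7.32%, or 1543 and 1759 probe sets, which turned to 2184 and 1045 with that centring. The median difference of the 94 was -0.042, and 33 were above 0, while 44.9% of all probe sets were above 0. With each array centred on its median, the median difference was -0.018 for the 94 and 0.0095 for all probe sets. The counts above 0 and medians given for each list are without centring.

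Among other genes of the endothelin pathway, 1 of 8 probe sets was above 0, the median was -0.075, and 0 passed (1 lower at an unadjusted p under 0.05). MME, which encodes neprilysin, a protease that degrades endothelin and other vasoactive peptides, had the smallest p. Its first probe set ran from 10.92 to 11.79 in shunt and from 11.17 to 11.89 in control lambs. The MME difference was -0.30 ± 0.12 (SE, adjusted p = 0.291) there and -0.22 ± 0.11 with the other probe set (adjusted p = 0.366). ECE2, a relative of ECE1, was at -0.06, and FURIN, a protease that cuts the endothelin precursor ahead of ECE1, was at -0.07 and 0.02. BSG, a membrane glycoprotein, was at -0.19 and -0.08 in its probe sets, the first of them dim, at percentile 23.1 by mean level.

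In the renin-angiotensin list 6 of 24 probe sets were above 0, with a median of -0.083 and 0 past the threshold (3 lower at an unadjusted p under 0.05). AGTRAP, a protein that binds AGTR1 and promotes its internalization, ran from 7.84 to 8.25 in shunt and from 8.08 to 8.43 in control lambs. Its difference was -0.20 ± 0.06 (SE, adjusted p = 0.226), with 7 of 8 shunt lambs below the control mean. THOP1, a peptidase that can turn angiotensin I into angiotensin 1-7, was at -0.18 ± 0.07, the steroid hydroxylase CYP11B1 at -0.16 ± 0.07 and the peptidase DPP4 at -0.16 ± 0.08 (adjusted p from 0.291 to 0.404). Their other probe sets were at -0.08 (THOP1), -0.08 (CYP11B1) and -0.19 (DPP4). The first THOP1 probe set was dim, at percentile 24.5 by mean level, and the other was at 76.9. ATP6AP2, the prorenin receptor, was at -0.17 and -0.03. ENPEP, which degrades angiotensin II, was dim and at 0.13 and -0.04. In the kinin list 1 of 7 probe sets was above 0, with a median of -0.083, 0 past the threshold and 0 at an unadjusted p under 0.05. The kallikrein KLK1 was at -0.17, the substance P receptor TACR1 at -0.09 and -0.11 and TAC1, the precursor of substance P, at 0.13 and -0.06. The TACR1 and TAC1 probe sets were dim, at percentiles from 8.64 to 19.3 by mean level.

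Of 38 probe sets of genes that couple these receptors to contraction, 16 were above 0, with a median of -0.020 and 0 past the threshold (unadjusted p under 0.05 for 3 higher and 3 lower). The largest difference of the 94 was that of 1 of 3 probe sets of RGS16, which shuts off signalling by Gq and Gi proteins. This probe set ran from 7.32 to 9.51 in shunt and from 6.80 to 8.20 in control lambs, a difference of 0.91 ± 0.28 (SE, adjusted p = 0.224) with 7 of 8 shunt lambs above the control mean. The other RGS16 probe sets were at 0.05 and -0.03 (adjusted p = 0.747 and 0.927). GNA14, a subunit of the Gq family, was at -0.33 ± 0.11 (adjusted p = 0.232), with 8 of 8 shunt lambs below the control mean. The calcium release channel ITPR1 was at 0.20 ± 0.07 with the probe set of smallest p (adjusted p = 0.265), while its other 4 probe sets were at -0.17, -0.10, -0.14 and -0.01, the first with an adjusted p of 0.336. The receptor kinase GRK5 was at 0.15 ± 0.06 (adjusted p = 0.310). RHOA, the switch that raises calcium sensitivity of smooth muscle, was at 0.04, and its kinase ROCK2 at 0.11 and 0.16.

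Among 17 probe sets of transcription factors and inducers known for the EDN1 or receptor promoters, 9 were above 0, with a median of 0.060 and 0 past the threshold (unadjusted p under 0.05 for 3 higher and 3 lower). Over all probe sets those shares were 6.42% and 7.32%, and the 3 lower ones here were all of 1 gene, JUN. JUN, an AP-1 subunit that binds the EDN1 promoter, came nearest. Its brightest probe set ran from 11.94 to 12.27 in shunt and from 12.31 to 12.45 in control lambs, groups that did not overlap, as for 0.142% of all probe sets. It was named for the smallest p of its list, so the gap between the groups is not separate support. The JUN difference was -0.27 ± 0.05 (SE, adjusted p = 0.0592), and it passed in 5 of the alternative fits, with adjusted p from 0.0285 to 0.0498. Further JUN probe sets were at -0.23, -0.39, -0.13 and -0.04. HIF1A, the hypoxia factor that acts on EDN1, was at 0.20 ± 0.06 (adjusted p = 0.235).

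**Figure D4:**
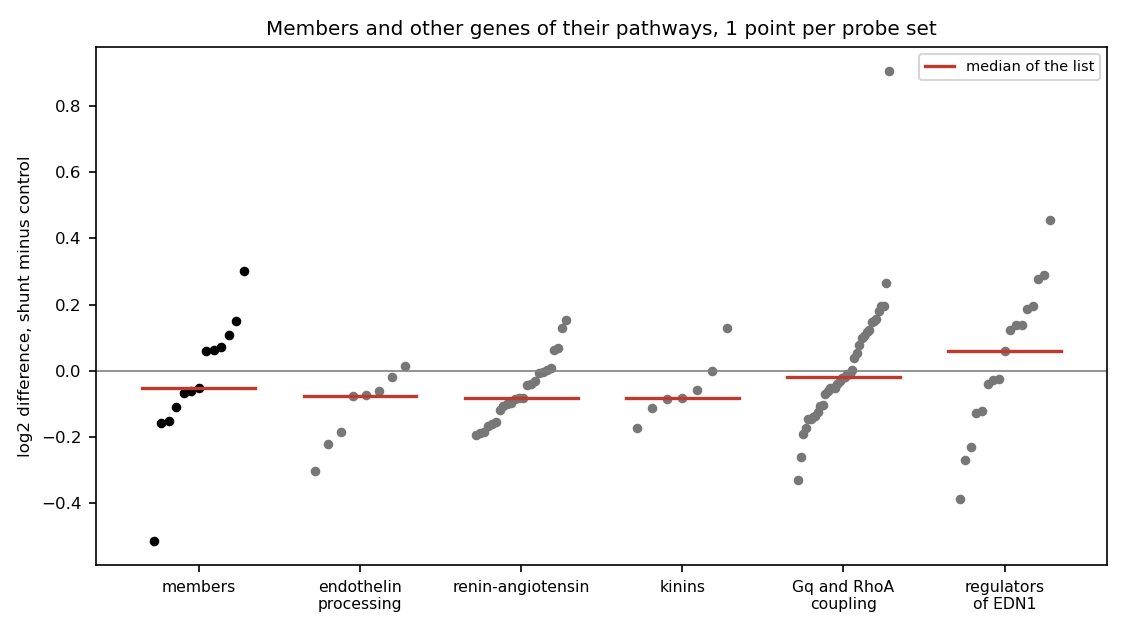
Log2 difference of shunt minus control (vertical axis) for the 13 member probe sets (black) and the 94 probe sets of the 5 pathway lists (grey), sorted within each list, with the median of each list as a line. The medians lie between -0.083 and 0.060, and the highest point is 1 of the 3 RGS16 probe sets, at 0.91.

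Several members varied between lambs more than nearly all other probe sets. The SD within groups, pooled over both, was 0.551 for EDN1, 0.530 for EDN3, 0.500 for EDNRB and 0.431 for AGTR1, at percentiles 99.3, 99.2, 99.0 and 98.4 of all probe sets, whose median was 0.145. EDN2 was at percentile 18.3 with an SD of 0.105. With group means removed, 36 pairs of members were compared over 16 lambs, with 0 past the threshold after adjustment. The pair with the smallest p was the ligand EDN3 and its receptor EDNRB, with r = 0.59 (permutation p = 0.00518, adjusted p = 0.186) and rho = 0.64 (permutation p = 0.00315, adjusted p = 0.113). Within shunt lambs r was 0.59 and within control lambs 0.83, and without the 2 lambs farthest from the EDN3 median it was 0.66. With XIST level as a sex covariate the SE of the EDNRB difference was 0.165 against 0.220 without it. For EDN3 these were 0.210 and 0.232. The part of sex in this pair was not tested. EDN1 and EDNRA had r = 0.44 (permutation p = 0.132) and rho = 0.44 (permutation p = 0.107), with r = 0.34 without the 2 lambs farthest from the EDN1 median.

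**Figure D5:**
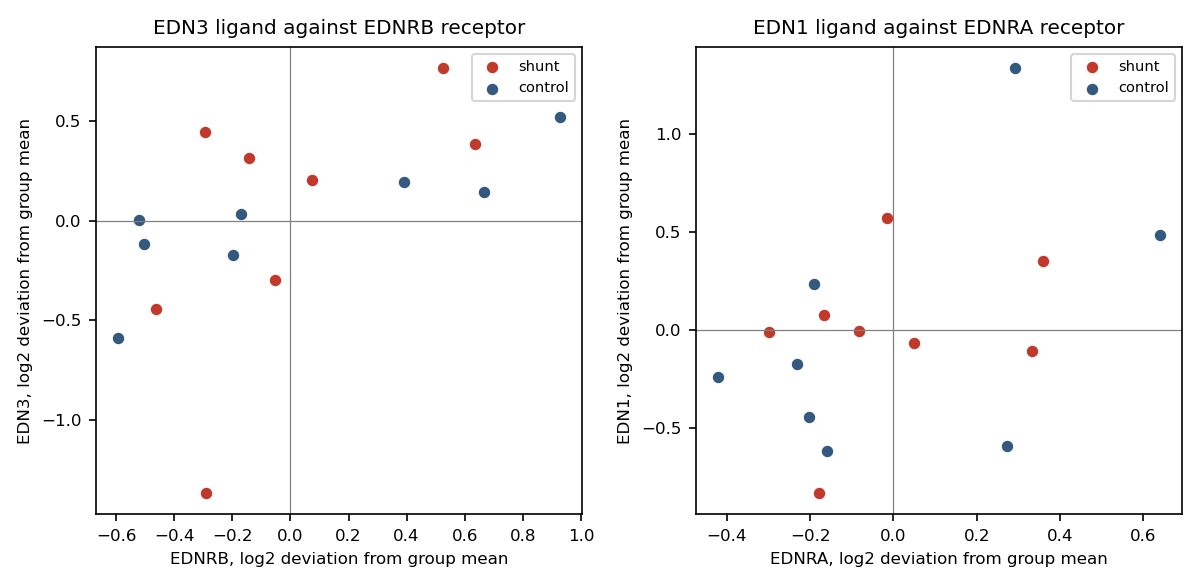
Deviation of each lamb from its group mean on the log2 scale, for EDN3 against EDNRB (left) and EDN1 against EDNRA (right), with 8 shunt and 8 control lambs. High EDN3 goes with high EDNRB in most lambs (r = 0.59, adjusted p = 0.186), and EDN1 with EDNRA less closely (r = 0.44).

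Levels of cell type markers were set beside the members, as the mean over the measured genes of a list. Endothelial markers, 9 of 10 measured, ran from 9.37 to 9.58 in shunt and from 9.23 to 9.51 in control lambs, with 7 of 9 genes higher and 0 past the threshold. PECAM1 came nearest to it, at 0.28 (adjusted p = 0.0609, limma), while the genes that were lower, CLDN5 and VWF, were at -0.11 each. Smooth muscle markers, 9 of 9, ran from 10.28 to 10.58 in shunt and from 10.05 to 10.53 in control lambs. The list means were 9.45 in shunt and 9.36 in control lungs for endothelium, and 10.43 and 10.27 for smooth muscle, where 7 of 9 genes were higher and 0 passed. Pericyte markers, 4 of 7, ran from 7.88 to 8.13 in shunt and from 7.72 to 7.92 in control lambs, with 4 of 4 genes higher. Macrophage markers, 5 of 8, ran from 8.72 to 9.34 in shunt and from 8.45 to 9.06 in control lambs, with 3 of 5 genes higher. The macrophage genes did not move together, with MSR1 at 0.50, CD14 at 0.42 and CSF1R at 0.06, but C1QB at -0.21 and CD68 at -0.05. Mast cells carry chymase, which makes angiotensin II without ACE, but of 7 mast cell markers only KIT, HDC and TPSB2 were measured. Their list mean ran from 6.498 to 6.97 in shunt and from 6.52 to 6.83 in control lambs, with 1 of 3 genes higher. Epithelial and neutrophil markers had lower list means in shunt lambs. Alveolar type 2 markers, 7 of 8 measured, averaged 10.57 in shunt and 10.75 in control lungs, with 0 of 7 genes higher. Alveolar type 1 markers, 6 of 7, averaged 11.06 and 11.22, with 1 of 6 higher, and airway markers, 3 of 6, averaged 8.51 and 8.62, with 1 of 3 higher. Neutrophil markers, 6 of 8, averaged 6.47 in shunt and 6.65 in control lungs, with 0 of 6 higher. Their list mean ran from 6.37 to 6.60 in shunt and from 6.37 to 7.05 in control lambs, which overlap. By mean level these genes were at percentiles from 5.30 (CAMP) to 69.5, with a median of 41.3. No gene of these lists passed the threshold (limma). The part of these cells in the member values was not tested.

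Of 45 relations between a member and the mean of endothelial, smooth muscle, fibroblast, alveolar type 2 or macrophage markers, 1 passed after adjustment. AGTR1 was low where macrophage markers were high, with r = -0.81 (permutation p = 0.00084, adjusted p = 0.0378), -0.88 within shunt and -0.77 within control lambs. Its rho was -0.59 (permutation p = 0.0292, adjusted p = 0.336), which did not pass, and r without the 2 lambs farthest from the AGTR1 median was -0.69. Those lambs were shunt replicates 4 and 2. Control replicate 2, the array that stood apart, was still included, and r without it was not computed. AGTR1 had r = 0.57 and rho = 0.60 with fibroblast markers (permutation p = 0.0137 and 0.0134, adjusted p = 0.205 and 0.336). EDN1 had r = 0.66 and rho = 0.58 with the same markers (permutation p = 0.0111 and 0.0299, adjusted p = 0.205 and 0.336), and r fell to 0.44 without the 2 lambs farthest from its median.

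The probe sets most like a member over the 16 lambs, with group means removed, were picked for that likeness and so carry no test. For EDN1 they were MARS1, PHLDB2 and CNGB1, with r = 0.93, 0.90 and 0.90, or 0.87, 0.83 and 0.84 without control replicate 2. For EDNRA they were CLIP3, TMEM198B and APOOL, with r of 0.90, 0.87 and 0.87. For EDNRB they were EPB41L5, PALS1 and KAT2B, with r of 0.91, 0.90 and 0.89. None of these 9 probe sets differed between the groups past the threshold.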

How the data were processed

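The authors deposited log2 values for each array, normalized with RMA (per the submitters' processing notes, with no version stated there). Signal over background and scan batches are unknown, and the number of arrays limits the precision. Of 24128 probe sets, 112 manufacturer controls were left out. The remaining 24016 were fitted with limma 3.58.1 (lmFit, eBayes, two-sided, no covariate) in R 4.3.3 and adjusted by Benjamini-Hochberg. The table gave 1 symbol for 13292 probe sets, several for 86 and none for 10638. Named genes were all member probe sets and the 4 probe sets of smallest p per pathway list. Other listed genes (ECE2, FURIN, ATP6AP2, ENPEP, RHOA, ROCK2 and further probe sets of named genes) were added after their values were seen. Members and lists were chosen with earlier results of these data known, and correlations were added after the files were read, with 100000 permutations within groups. In simulated data with the real spread for shunt against control, over 24016 probe sets, the fit recovered 55.2% of 67 changes of 0.3, 91.0% of 67 changes of 0.6 and 100% of 66 changes of 1. It also called 4 unchanged probe sets. The changed probe sets were drawn at random from all, whose median SD within groups was 0.145. These rates therefore do not hold for EDN1, EDN3, EDNRB and AGTR1, with SDs of 0.431 to 0.551. The SDs of EDNRA (0.305) and of the ECE1 probe sets (0.193 to 0.220) also lay above that median. Far more probe sets passed in the simulated data than the 17 of the real fit, so a larger p was enough to pass there. The rates are therefore too high for the real fit. Alternatives were a replicate block, a filter on dim probe sets, other normalizations, array weights, another prior, XIST level as a sex covariate, the brightest probe set per gene, exact permutation over 12870 divisions, and each array left out. Plots used matplotlib 3.10.9 in Python 3.11.15.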

Additional observations from a re-analysis of the deposited data

Results flagged for a closer look

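The distance from the highest or lowest lamb to the next, divided by the whole range of its group, was above the 95% critical value in 2 of 26 sets of 8 member values, where chance gives about 1.3 (1 in 20). EDN2 was lowest in control replicate 8, at 7.92 against 8.20 to 8.37 in the other control lambs, a ratio of gap to range of 0.619. AGTR1 was highest in control replicate 2, at 8.80 against 7.86 to 8.28, a ratio of 0.553.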

How the results depend on the processing

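No member probe set passed in any of the fits run. Of 332 alternative values of single probe sets, 329 kept their direction and their side of the threshold. The exceptions were EDNRB without control replicate 5 (0.071), without control replicate 8 (0.034) and without shunt replicate 7 (0.0047). Part of this count was fixed in advance. The permutation values repeat the difference of the main fit and its side of the threshold. The replicate block, the dim filter, the other prior and the brightest probe set per gene leave each difference as it was, so no direction could turn there. With 1 array left out the EDN1 difference ran from 0.21 to 0.49, EDN3 from -0.63 to -0.32, AGTR1 from 0.0012 to 0.27 and EDNRB from -0.15 to 0.071. The count of all probe sets past the threshold was 17, and it was 0 with the replicate block (limma, with an unadjusted p under 0.05 for 1419 higher and 1483 lower), 10 after quantile normalization again, 26 with arrays centred on their medians, 45 with array weights and 8 with the brightest probe set of each gene, where 9155 were tested. With 1 array left out it ran from 6 to 75, the highest without shunt replicate 1. The count of pathway probe sets was 1 (JUN) without the dimmest 25% of probe sets, 1 with array weights and 1 with the trended and robust prior, and ran from 0 to 1 with 1 array left out, passing without shunt replicate 1 or 7. The cause was not tested. The lambs of a pair share only a replicate number, and their deviations from the group means correlated from -0.26 to 0.22, with 2 of 8 pairs over 0.1 and 0 of 8 shunt lambs most like their own number. With the block EDN3 had an adjusted p of 0.357.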
